A study of Homo sapiens with 30 samples.

Results

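Transcript levels in HepG2 cells, a human hepatoma line that keeps many liver functions, were compared between the high and the low dose of Sibjeondaebo-tang. Sibjeondaebo-tang is a tonifying formula of Korean medicine that in traditional use extends another formula, Palmul-tang, with Astragalus root and cinnamon bark. The comparison used 6 of the 30 libraries, chosen by their labels as the 3 of the high dose (500 µg/mL) and the 3 of the low dose (20 µg/mL), each after 24 h with an ethanol extract. No library was left out for its values. The 3 libraries of the medium dose (100 µg/mL), 3 each of the high and low dose of Palmul-tang, also ethanol extracts at 500 and 20 µg/mL, and 3 of the DMSO vehicle are given beside them. HepG2 is 1 line, and the labels do not tie replicates to separate cultures. The spread behind the p-values was estimated in a fit of 27 libraries of 10 groups. Besides those above, the fit held Palmul-tang at 100 µg/mL and ethanol extracts of Samul-tang, another formula, at 500, 100 and 20 µg/mL. The p-values therefore reflect the variation among these 27 libraries alone, and it may be technical.

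Plant extracts reach liver cells through sensors that change transcription. The aryl hydrocarbon receptor (AHR) binds planar aromatic ligands and switches on CYP1 enzymes. NRF2 is freed from its inhibitor KEAP1 by electrophiles and induces glutathione, quinone and carbonyl metabolism, while ATF4 is translated when amino acid supply or protein folding is strained and induces amino acid synthesis, uptake and tRNA charging. In the opposite direction, BMP signals through SMAD proteins keep hepcidin (HAMP), the liver hormone that blocks iron export, and the ID genes on.

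Expected counts per library ran from 25577311 to 36105648 among the 6, within 21570416 to 37707232 over all 30. Mitochondrial transcripts took 17.2% to 19.4% of counts in the high libraries, 15.7% to 17.0% in the low and 15.7% to 19.7% in the medium. All 11 hepatocyte and hepatoma markers were present in every library. Their summed level was 61656 to 63281 CPM (counts relative to library size after TMM scaling) in the high and 64594 to 66222 CPM in the low libraries. Low replicate 3 stood apart in fibroblast transcripts, which are described at the end. Fewer cells with a transcript and less of it per cell cannot be told apart in bulk RNA.

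In edgeR's quasi-likelihood test with Benjamini-Hochberg adjustment, 19.8% of the 16083 tested genes passed 0.05, 10.4% with higher levels at the high dose and 9.44% with lower ones, and 31.6% had an unadjusted p under 0.05. The 3 high and 3 low libraries did not overlap, in either direction, for 40.4% of genes. Higher genes moved little, with a median absolute log2 fold change of 0.223 and 22 genes at 2-fold or more (0.137% of those tested). Lower genes moved more, with a median of 0.408 and 144 genes at 2-fold or more (0.895%). They were also less abundant, at a median log2 CPM of 3.67 beside 5.85 for higher genes. A gene with fewer reads needs a larger change to pass, and the part of this was not tested. The share of calls that were higher depended on the scaling. It was 52.4% with TMM factors and 14.2% with library totals alone, where 393 genes were higher and 2378 lower. TMM factors gave 1673 higher and 1518 lower. The counts per list with library totals below are to be read against this shift over all genes. Leaving out 1 library at a time gave 2042 to 2582 calls. There were 2042 without high replicate 3, and 1491 genes, 606 higher and 885 lower, were called each time with the same sign.

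The 12 largest rises by the naming rule were those of CYP1A1, AKR1B10, SPP1, CPLX2, SLC7A11, UGT1A1, AKR1C2, NQO1, PFKFB3, ASNS, PLAC8 and PIR. Of 8 tested AHR targets, 4 rose, with a list median of log2 0.64 beside 0.02 over all tested genes. CYP1A1, the cytochrome P450 that oxidises polycyclic aromatics (chromosome 15, 74719542 to 74725610, GRCh38), was at 124, 127 and 160 CPM with the high dose and 17.9, 19.3 and 17.1 CPM with the low dose. The medium dose lay between at 37.6, 37.6 and 40.5 CPM, and vehicle was at 11.3 ± 1.51 CPM (SD, n = 3). The lowest high library was thus several times the highest low library, with a log2 difference of 2.92 ± 0.081 (SE) and an adjusted p of 4.26e-20 by edgeR. CYP1A2, its neighbour that oxidises aromatic amines, rose from at most 0.06 CPM to 0.25, 0.398 and 0.4 CPM (log2 3.03 ± 0.68, adjusted p 0.00169), so this rise rests on few reads. ALDH3A1, an aldehyde dehydrogenase, was at 4.14, 4.75 and 4.07 CPM against 1.49, 1.67 and 1.14 CPM (1.58 ± 0.152, adjusted p 3.54e-09 by edgeR).

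Other AHR targets did not follow CYP1A1. TIPARP, which encodes a feedback ADP-ribosyltransferase, was at 23.2, 25.0 and 25.2 CPM with the high and 24.5, 24.5 and 23.1 CPM with the low dose, and the groups overlapped (log2 0.03, adjusted p 0.793). AHRR, the receptor's repressor, had a log2 difference of 0.41 with an adjusted p of 0.31. CYP1B1 pointed the other way, at 0.041, 0.133 and 0.073 CPM with the high and 0.149, 0.223 and 0.38 CPM with the low dose, but did not pass (log2 -1.50 ± 0.57, adjusted p 0.0608).

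Of 27 tested NRF2 targets, 25 rose (median log2 0.43), and 23 of them passed in each of the 6 fits without 1 library. With library totals 21 rose and 1 fell. AKR1B10, a reductase of reactive aldehydes and retinal (chromosome 7, 134527592 to 134541408), was at 102, 95.1 and 101.3 CPM with the high dose and 37.8, 39.0 and 39.2 CPM with the low dose. That made a log2 rise of 1.36 ± 0.06 with an adjusted p of 6.53e-17 by edgeR. AKR1C1 and AKR1C2, reductases of steroids and carbonyls, are near-identical copies whose reads are divided by estimate, so each level is uncertain. AKR1C1 was at 468, 432 and 480.1 CPM against 264, 292 and 296 CPM (0.70 ± 0.067), and AKR1C2 at 296, 268 and 302 CPM against 150.1, 160 and 161 CPM (0.88 ± 0.064).

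Called members of the glutathione, quinone and thioredoxin systems covered a wide range. GCLM and GCLC encode the regulatory and catalytic subunits of the first enzyme of glutathione synthesis. GCLM rose from 32.1, 29.3 and 30.3 CPM to 51.1, 48.8 and 54.7 CPM (log2 0.75 ± 0.066), and GCLC from 77.2, 76.5 and 78.5 CPM to 105, 102 and 106 CPM (0.43 ± 0.04). The cystine importer SLC7A11 was at 63.5, 57.4 and 55.9 CPM against 32.2, 32.6 and 29.8 CPM (0.90 ± 0.096). The quinone reductase NQO1, also an AHR target, was at 608, 654 and 679 CPM against 347, 353 and 356 CPM (0.88 ± 0.053). SRXN1, which repairs over-oxidised peroxiredoxins, rose by 0.58 ± 0.041 and TXNRD1, thioredoxin reductase, by 0.50 ± 0.056. The smallest rise in the list was that of the peroxiredoxin PRDX1 (0.22). HMOX1, heme oxygenase, rose by no more than 0.33 ± 0.06. Among enzymes that feed NADPH, 5 of 12 rose (2 with library totals), with TKT at 0.45 ± 0.052, TALDO1 at 0.37 ± 0.059 and PGD at 0.23 ± 0.051.

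**Figure D1:**
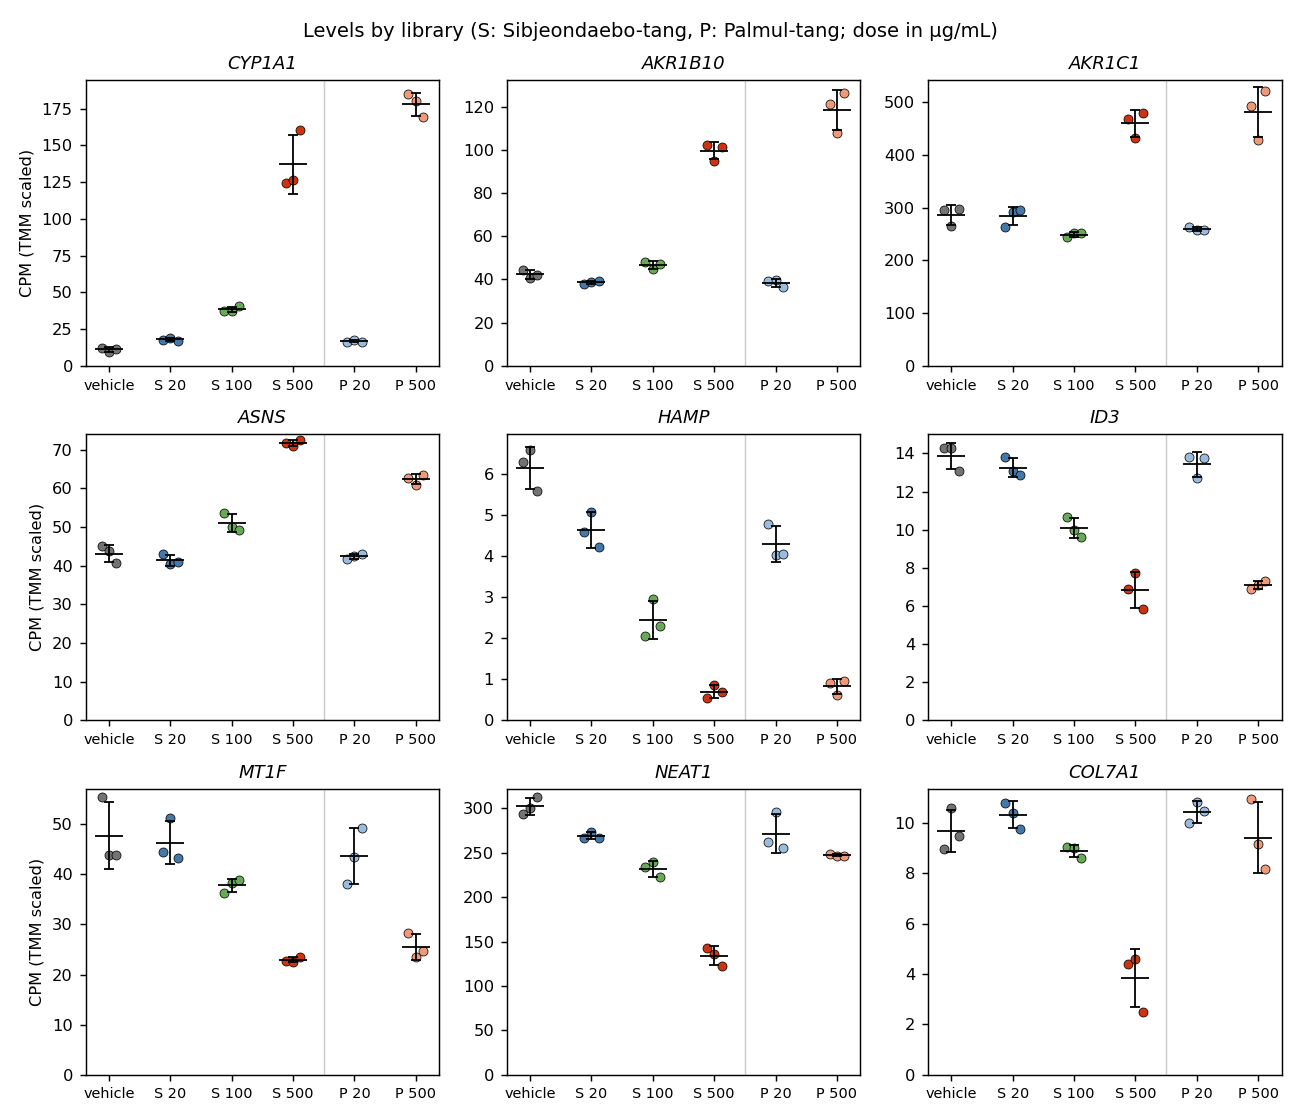
Levels in CPM after TMM scaling (vertical axes, linear from 0) of 9 genes in each library of the vehicle, the 3 doses of Sibjeondaebo-tang (S, in µg/mL) and 2 doses of Palmul-tang (P). Points are libraries, long bars means and error bars SDs of 3 libraries. CYP1A1, AKR1B10, AKR1C1 and ASNS were highest at the high doses of both formulas, and NEAT1 and COL7A1 were low only in the points of Sibjeondaebo-tang high.

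The promoters of members that moved were read for short motifs that the named factors are known to bind, on both strands, in the 250 bases before each start (RefSeq, GRCh38.p14, first listed start per gene). The sequences below are those of an AHR target, a paralog pair of NRF2 targets, an ATF4 target and a metallothionein, each described by its levels here, 5′ to 3′ on the gene's strand, with matches in capitals. They are GCGTG (AHR core) in CYP1A1 (chr15:74725529-74725778, minus strand), TGANNNNGC (antioxidant response element core, here on the opposite strand) in AKR1C1 (chr10:4963165-4963414, plus strand) and AKR1C2 (chr10:5003858-5004107, minus strand), TGATGNAA (C/EBP-ATF response element) in ASNS (chr7:97872409-97872658, minus strand) and TGCNCNC (metal response element core) in MT1X (chr16:56682220-56682469, plus strand).
CYP1A1: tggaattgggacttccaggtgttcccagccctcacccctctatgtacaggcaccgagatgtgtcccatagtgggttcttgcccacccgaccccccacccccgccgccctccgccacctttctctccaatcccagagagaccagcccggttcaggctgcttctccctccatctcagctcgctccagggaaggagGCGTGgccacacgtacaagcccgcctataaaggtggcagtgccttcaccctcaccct
AKR1C1: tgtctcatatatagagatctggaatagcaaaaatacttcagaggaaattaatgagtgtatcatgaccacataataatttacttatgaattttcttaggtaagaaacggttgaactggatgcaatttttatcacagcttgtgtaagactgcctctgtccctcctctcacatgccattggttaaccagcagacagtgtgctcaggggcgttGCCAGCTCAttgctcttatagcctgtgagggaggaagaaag
AKR1C2: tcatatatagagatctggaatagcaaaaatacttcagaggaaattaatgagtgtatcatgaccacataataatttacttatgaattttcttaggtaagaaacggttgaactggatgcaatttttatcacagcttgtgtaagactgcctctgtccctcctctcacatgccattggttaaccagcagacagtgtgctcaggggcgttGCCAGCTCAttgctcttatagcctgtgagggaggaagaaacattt
ASNS: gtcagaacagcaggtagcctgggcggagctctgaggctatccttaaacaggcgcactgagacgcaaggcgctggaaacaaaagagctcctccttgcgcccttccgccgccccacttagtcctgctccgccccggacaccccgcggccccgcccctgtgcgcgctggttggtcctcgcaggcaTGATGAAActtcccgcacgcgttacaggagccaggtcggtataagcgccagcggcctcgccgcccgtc
MT1X: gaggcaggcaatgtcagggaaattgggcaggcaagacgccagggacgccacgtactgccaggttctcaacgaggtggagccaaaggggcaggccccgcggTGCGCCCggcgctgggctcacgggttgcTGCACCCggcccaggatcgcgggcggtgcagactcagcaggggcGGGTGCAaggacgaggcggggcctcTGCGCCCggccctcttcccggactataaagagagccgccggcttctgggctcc

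The AHR core lay 57 to 53 bases before the CYP1A1 start. Of the 6 AHR targets with a listed promoter, 4 held it, beside 31.9% of all 27305 promoters and 44.6% of those of tested genes. The core was not particular to AHR targets. It was in 12 of 16 tRNA synthetase genes, 11 of 19 ATF4 targets and 4 of 6 metallothionein and zinc transporter genes. Fewer NRF2 targets (8 of 19) and BMP-SMAD targets (3 of 11) had it. Among all called genes it was in 46.0% of promoters of higher and 41.5% of lower genes. The antioxidant core was in 11 of 19 NRF2 targets in 35.4% of all promoters and in 36.5% of those of tested genes. In AKR1C1 and AKR1C2 it lay at the same place of a shared sequence: with a shift of 4 bases, 245 of 246 bases were identical, the promoter counterpart of the read sharing between these genes. The C/EBP-ATF element is rarer, in 3.2% of all and 1.4% of tested promoters, and was found in 2 of 19 ATF4 targets and 2 of 16 tRNA synthetase genes. The metal core was in 48.4% of all promoters, and 1.7% held at least 4 matches. MT1X had 4 and MT2A had 7. A match describes letters, not binding. Starts differ between annotations: 46 to 166 of the 250 bases printed per gene lie in exons of other transcripts in GENCODE 29.

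Many amino acid response genes rose with the high dose. Of 22 tested ATF4 targets of the integrated stress response, 13 rose and 1 fell (median log2 0.27), and 8 rose in each fit without 1 library. With library totals 7 rose. ASNS, asparagine synthetase (chromosome 7), was at 71.6, 70.9 and 72.4 CPM with the high dose and 43.0, 40.3 and 40.9 CPM with the low dose (0.79 ± 0.05, adjusted p 3.03e-13 by edgeR), and the medium libraries at 49.2 to 53.5 CPM lay between. STC2, a secreted glycoprotein, rose by 0.45 ± 0.052 and DDIT4, an inhibitor of mTORC1, by 0.53 ± 0.088. The transcript of ATF4 itself had a log2 difference of 0.12 with an adjusted p of 0.125. The member that fell was DDIT3, which encodes the stress factor CHOP, at 6.54, 6.7 and 6.11 CPM against 7.65, 9.23 and 7.46 CPM (-0.33 ± 0.092, adjusted p 0.00904 by edgeR). Without low replicate 2 its adjusted p was 0.114.

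The enzymes that charge tRNAs moved together, each by a small amount. Of 20 cytosolic aminoacyl-tRNA synthetase genes, 18 rose, with log2 values from 0.15 (LARS1) to 0.38 (WARS1). The high libraries lay above the low ones without overlap for all 20, as they did for 23.3% of all tested genes. Between 15 and 18 passed when 1 library was left out, and 9 passed with library totals. WARS1, for tryptophan, was at 128, 125 and 124 CPM against 96.0, 95.7 and 97.9 CPM. Serine and one-carbon genes rose in 7 of 14 cases (3 with library totals), including MTHFD2 (0.38 ± 0.054) and MTHFD1L (0.49 ± 0.062), which run folate chemistry in mitochondria. MAT2A, which makes the methyl donor S-adenosylmethionine, was the member that fell, from 308, 307 and 291 CPM to 181, 190.2 and 160 CPM (-0.77 ± 0.06, adjusted p 4.56e-11 by edgeR).

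In the lists for making and clearing proteins some members rose, by small amounts. Ribosome biogenesis genes rose in 17 of 30 cases, among them the helicase DDX21 (0.27 ± 0.045), PES1 (0.27 ± 0.046) and RRP12 (0.31 ± 0.053). Proteasome subunits rose in 16 of 33 cases, led by PSMB2 (0.31 ± 0.055). Mitochondrial ribosomal protein genes rose in 13 of 36. With library totals these counts were 6, 2 and 0, while higher calls over all tested genes went from 1673 to 393. Of the 13 mitochondrial ribosomal calls, 2 were made in each fit without 1 library. Cytosolic ribosomal protein genes rose in only 3 of 76 cases, beside 10.4% of all tested genes, and in 0 with library totals. Autophagy and lysosome genes rose in 8 of 30 cases and fell in 1, and 2 rose with library totals. Of 18 heat shock genes, 8 rose with TMM factors and 1 with library totals. HSPA1A, the inducible HSP70, was at 133, 121 and 125 CPM against 120, 115 and 112 CPM and did not pass (0.13, adjusted p 0.105). Of 20 ER chaperone and unfolded protein genes, 2 rose and 1 fell, beside 10.4% and 9.44% of all tested genes. The chaperones CANX (0.22) and DNAJB9 (0.35) were the rises and HSP90B1 (-0.15) the fall. With library totals 0 rose and 2 fell, and DNAJB9 did not pass in 4 of the 6 fits without 1 library.

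Energy genes of the hypoxia and glycolysis lists rose in 14 of 20 and 10 of 18 cases, and in 6 and 7 with library totals. PFKFB3, which sets the level of the main activator of glycolysis, was at 10.6, 11.4 and 7.16 CPM against 6.7, 5.44 and 4.40 CPM (0.81 ± 0.194, adjusted p 0.00497), with the third high library close to the first low one. SLC2A1, a glucose importer, rose by 0.38 ± 0.052, PDK1, a kinase that inhibits pyruvate dehydrogenase, by 0.37 ± 0.052, and ALDOA, aldolase, by 0.35 ± 0.052. VEGFA, the angiogenic factor of the same list, had a log2 difference of -0.09 with an adjusted p of 0.252 and overlapping groups. PC, pyruvate carboxylase, rose by 0.43 ± 0.058.

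**Figure D2:**
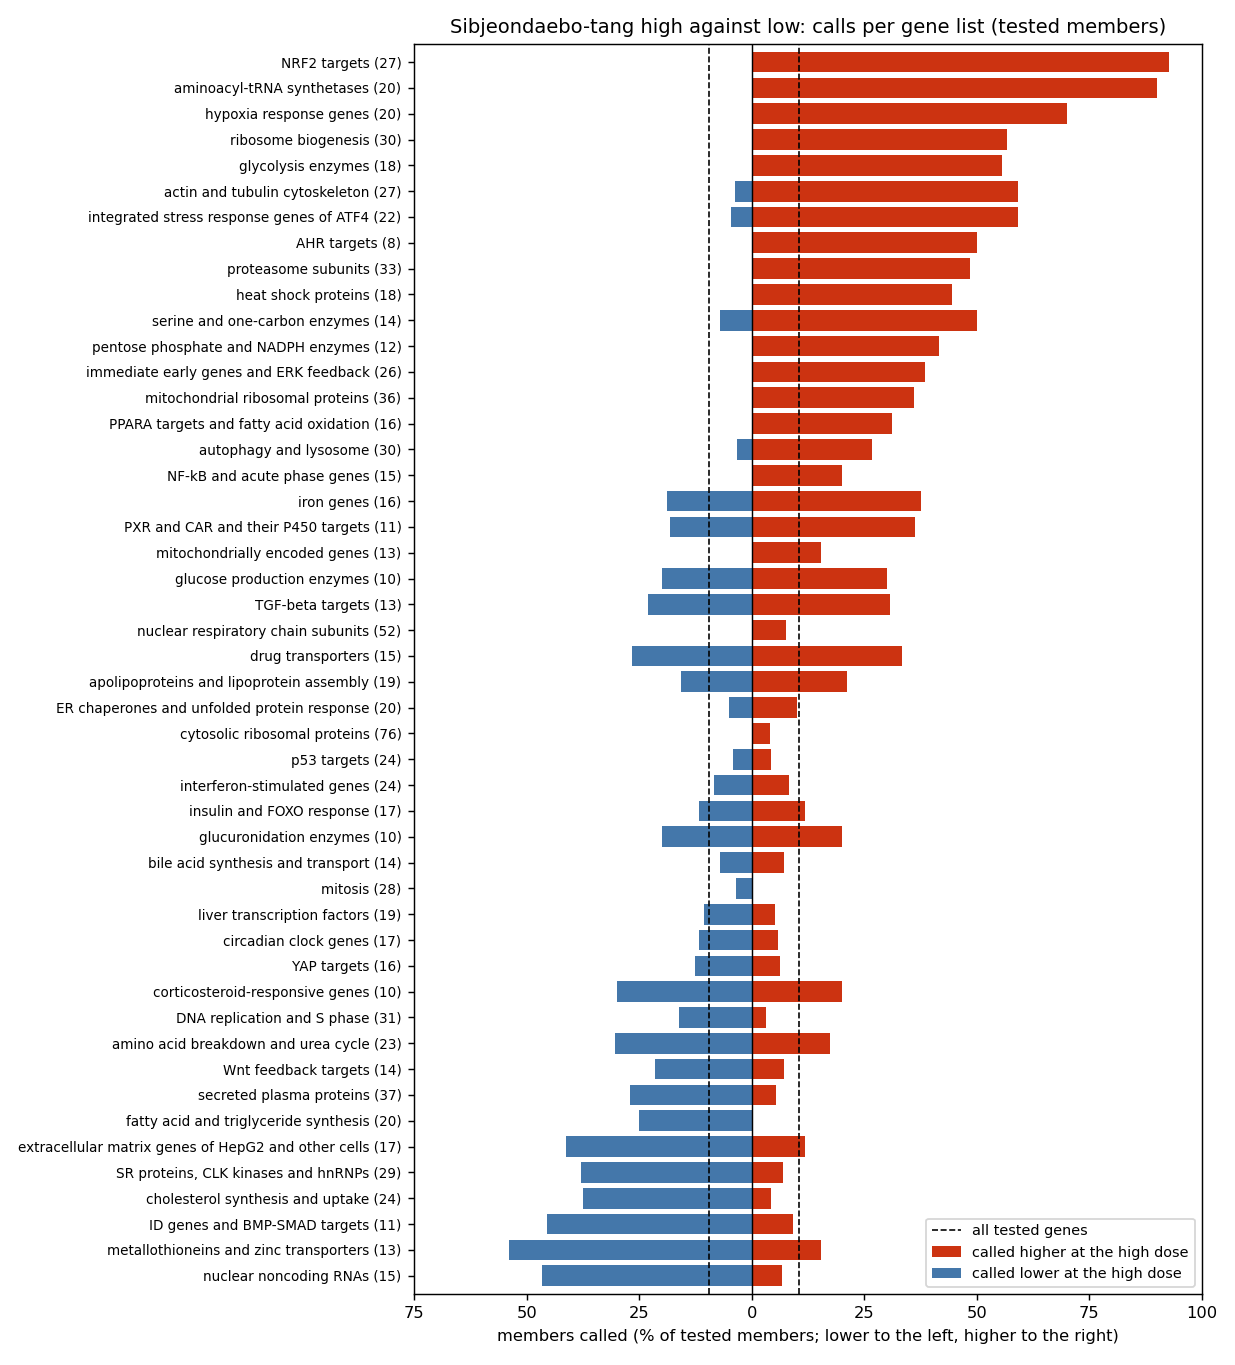
Percent of the tested members of 48 gene lists that were called higher (red, to the right) or lower (blue, to the left) at the high dose of Sibjeondaebo-tang, with tested members in brackets and dashed lines at 10.4% and 9.44%, the shares over all tested genes. NRF2 targets (25 of 27) and tRNA synthetases (18 of 20) are at the top, and nuclear noncoding RNAs, metallothioneins and BMP-SMAD targets at the bottom.

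Hepcidin fell several-fold. HAMP (chromosome 19) was at 0.538, 0.863 and 0.691 CPM with the high dose and 4.58, 5.08 and 4.21 CPM with the low dose. The medium libraries lay between, at 2.05, 2.95 and 2.3 CPM, and vehicle was at 6.14 CPM. Its log2 difference was -2.70 ± 0.187 with an adjusted p of 3.38e-12 by edgeR. Of 11 tested ID genes and BMP-SMAD targets, 5 fell and 1 rose, and the same number fell in every fit without 1 library and with library totals.

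The other members that fell were inhibitors of differentiation and of the pathway itself. ID3 was at 6.91, 7.73 and 5.85 CPM against 13.8, 13.1 and 12.9 CPM (-0.95 ± 0.094), and ID1 at 52.9, 58.3 and 49.4 CPM against 82.7, 85.5 and 79.6 CPM (-0.63 ± 0.07). ID2 fell by 0.52 and the inhibitory SMAD7 by 0.57 on the log2 scale. SMAD6, the other inhibitory SMAD, did not pass (-0.12, adjusted p 0.549). The ligand BMP4 was the member that rose, from 81.3, 80.5 and 81.6 CPM to 90.3, 95.1 and 108 CPM (0.27 ± 0.068, adjusted p 0.00452 by edgeR). Among 16 iron genes 6 rose and 3 fell, HAMP included, whereas 3 rose and 5 fell with library totals. FTH1, ferritin heavy chain, was at 3190, 2866 and 3218 CPM against 2109, 2048 and 1998 CPM (0.59 ± 0.064), and TFRC, the transferrin receptor, rose by 0.26 ± 0.06. SLC40A1, the iron exporter that hepcidin degrades, did not pass (-0.11, adjusted p 0.13).

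Metallothioneins are small proteins that hold zinc and copper. Of 13 tested metallothionein and zinc transporter genes, 7 fell and 2 rose (median log2 -0.31). The metallothionein genes are close copies, so their split is uncertain. MT1F was at 22.8, 22.6 and 23.5 CPM against 44.5, 51.2 and 43.1 CPM (-1.01 ± 0.128), MT1X at 17.5, 18.1 and 19.6 CPM against 29.5, 35.1 and 28.0 CPM (-0.75 ± 0.128), and MT1M at 0.165, 0.232 and 0.145 CPM against 1.01, 1.12 and 0.664 CPM (-2.33 ± 0.327). MT2A, the most abundant, was at 281, 315 and 335 CPM against 430, 490 and 407 CPM and passed narrowly (-0.51 ± 0.176, adjusted p 0.049 by edgeR). The zinc importers SLC39A10 (0.69 ± 0.085) and SLC39A4 (0.30) were the members that rose.

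The lipid lists went different ways. Cholesterol genes fell in 9 of 24 cases, with LSS, lanosterol synthase, at -0.39 ± 0.054 and STARD4, a sterol carrier, at -0.38 ± 0.056. Fatty acid and triglyceride genes fell in 5 of 20 cases. MLXIPL, the glucose-sensing factor ChREBP, fell most, from 196, 213 and 198 CPM to 106, 108 and 93.5 CPM (-0.98 ± 0.066, adjusted p 5.11e-12), and GPAM, the first enzyme of triglyceride synthesis, by 0.43. With library totals 14 cholesterol and 10 fatty acid genes were lower, while lower calls over all tested genes went from 1518 to 2378. Of 16 PPARA targets and fatty acid oxidation genes 5 rose (median log2 0.10), and 2 rose and 1 fell with library totals. PLIN2, which coats lipid droplets, rose by 0.38 ± 0.051.

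Of 37 secreted plasma protein genes, 10 fell and 2 rose, and 19 fell with library totals. KNG1, kininogen, was at 5.38, 5.71 and 6.18 CPM against 10.1, 10.1 and 11.0 CPM (-0.85 ± 0.081), and GC, the vitamin D carrier, at 1.03, 1.2 and 1.16 CPM against 2.0, 2.23 and 2.15 CPM (-0.90 ± 0.178). Liver factors moved little: CEBPA fell by 0.22, NR1H4, the bile acid receptor FXR, by 0.32, and HNF4A rose by 0.19 ± 0.045. CYP7A1, whose enzyme sets the rate of bile acid production, did not pass (-0.35 ± 0.137, adjusted p 0.0675). Neither did the p53 target CDKN1A, a cell cycle inhibitor, whose groups overlapped (0.10, adjusted p 0.184). GDF15, a stress-secreted hormone of the same list, rose by 0.47 ± 0.056. DNA replication genes fell in 5 of 31 cases (9 with library totals), and mitosis genes in 1 of 28 (CENPE, -0.50 ± 0.057).

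Drug handling genes split. UGT1A1, which glucuronidates bilirubin, rose from 14.6, 14.9 and 14.5 CPM to 25.4, 26.2 and 29.4 CPM (0.88 ± 0.081); its gene shares its later exons with other UGT1A genes, so the level is uncertain. The efflux pumps ABCG2 (0.68 ± 0.077) and ABCB1 (0.30 ± 0.045) rose, while ABCC6 (-0.31 ± 0.044), CYP3A7 (-0.50 ± 0.086), CYP3A5 (-0.39 ± 0.085) and UGT2B4 (-0.31 ± 0.054) fell. Of 26 immediate early and ERK feedback genes 10 rose, including EGR1 at 31.3, 30.4 and 33.3 CPM against 20.5, 21.1 and 20.1 CPM (0.62 ± 0.078). Cytoskeleton genes rose in 16 of 27 cases, and in 5 with library totals. The largest of these rises was that of TMSB10 (0.36), and 1 member, TPM2, fell by more (-1.16). SPP1, osteopontin, rose by 0.92 ± 0.091 and CPLX2, a complexin of vesicle release, by 0.90 ± 0.05. The secreted Wnt inhibitor DKK1 fell by 0.66 and the kinase SGK1 by 0.67.

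The naming rule for falls kept to genes whose mean log2 CPM was at least 2, which leaves out HAMP, MT1M and TPM2. It also passed over clone, LINC, antisense, pseudogene-like and readthrough symbols. The 12 largest falls by this rule were those of COL7A1, GOLGA8B, GOLGA8A, CSAD, NPEPL1, NRBP2, ATG16L2, KIFC2, CHRD, RGL3, MAMDC4 and RNF207, at log2 values from -1.43 to -1.08. They were not the largest of all, since the lowest log2 change of any gene at this level was -2.19. COL7A1, a collagen of anchoring fibrils (chromosome 3), was at 4.38, 4.61 and 2.51 CPM with the high dose and 10.8, 10.4 and 9.77 CPM with the low dose (-1.43 ± 0.128, adjusted p 1.56e-09 by edgeR). The medium libraries were at 8.6 to 9.04 CPM. CHRD, chordin, which binds BMP ligands, was at 19.6, 19.1 and 15.96 CPM against 39.9, 41.0 and 37.8 CPM (-1.12 ± 0.065). The Golgi protein genes GOLGA8A and GOLGA8B are near-identical copies and uncertain.

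Some nuclear RNAs and splicing regulators fell too. NEAT1, the RNA scaffold of paraspeckles (chromosome 11), was at 143, 137 and 122 CPM against 267, 274 and 267 CPM (-1.01 ± 0.052, adjusted p 4.95e-15), whereas MALAT1, a nuclear RNA of speckles, rose from 261, 267.6 and 255.0 CPM to 336, 288 and 327 CPM (0.28 ± 0.061, adjusted p 0.00118 by edgeR). Of 15 nuclear noncoding RNAs 7 fell and 1 rose. Of 29 SR proteins, CLK kinases and hnRNPs, which set splice site choice, 11 fell and 2 rose, with PNISR at -0.64 ± 0.062, SRSF5 at -0.40 ± 0.049, the kinase CLK1 at -0.39 ± 0.056 and SRSF6 at -0.29 ± 0.04. Extracellular matrix genes fell in 7 of 17 cases, with COL27A1 at -0.99 ± 0.058 and COL6A1 at -0.70 ± 0.082, and 7 were called lower in each fit without 1 library. In the same list 2 rose, TIMP1 (0.36) and TIMP3 (0.29), and the list median was log2 -0.03.

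Genes that fell shared features of structure. Among protein-coding genes whose mean log2 CPM was at least 2, the 972 lower genes had a median GC content of 53.6%, 13 exons and a median intron length of 949 bases. The 7718 genes not called had 49.0%, 10 exons and 1734 bases, and the 1569 higher genes had 49.3%, 10 exons and 1819 bases. An annotated retained-intron transcript (GENCODE 29) was listed for 74.9% of lower, 59.1% of higher and 59.4% of uncalled genes. These values describe annotation, and no intron reads were measured here. When GC content and length were fitted as an offset, 1488 genes were called lower and 1935 higher.

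**Figure D3:**
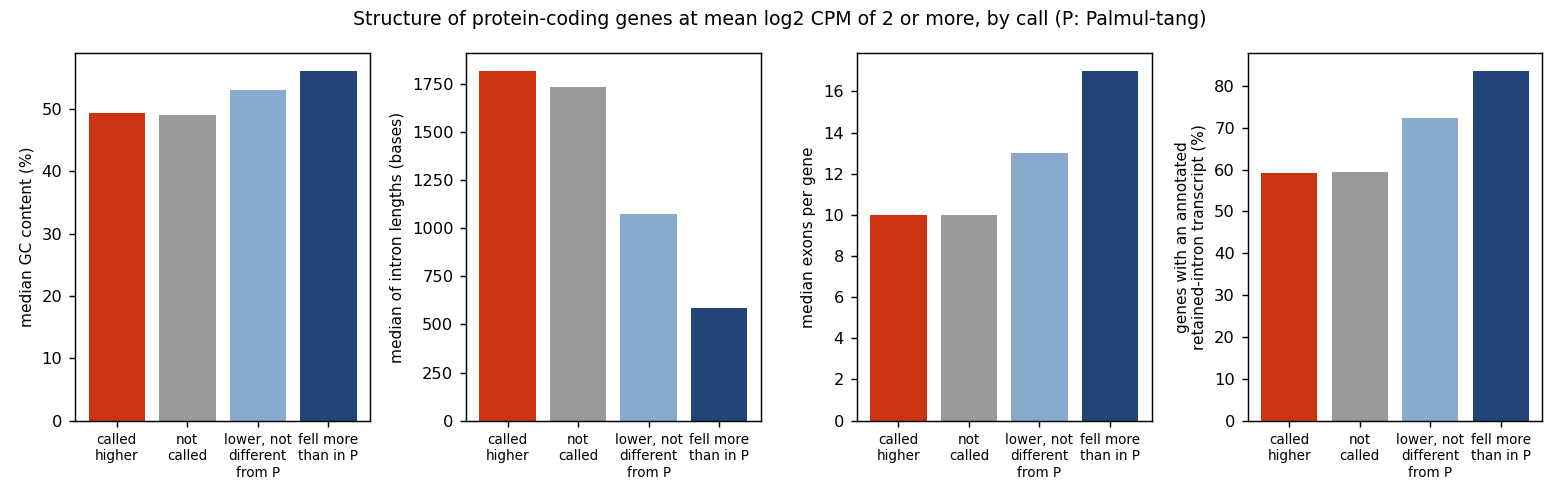
Median GC content, median intron length, median exon number and percent of genes with an annotated retained-intron transcript (bars from 0) for protein-coding genes called higher, not called, called lower without a called difference from Palmul-tang (P), and called to fall more than with Palmul-tang. The bars move in 1 direction from the uncalled to the last set, reaching 56.1% GC, 588 bases, 17 exons and 83.6%.

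Whether the change from low to high dose differed between Sibjeondaebo-tang and Palmul-tang was tested as the difference of the changes. Across 10796 genes the changes of the formulas, which share no library, had a Pearson r of 0.581 and a Spearman rho of 0.598, over genes that are not independent. The difference passed for 322 genes, 2.0% of those tested, of which 314 had the lower (1.95%) and 8 the higher change (0.0497%) with Sibjeondaebo-tang. Of the 314, 297 were among the genes that fell with Sibjeondaebo-tang, where their median log2 change was -0.56, and the median with Palmul-tang was -0.02.

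Levels with Palmul-tang are given here for genes with a called difference. COL7A1 was at 9.42 ± 1.41 CPM (SD, n = 3) in Palmul-tang high and 10.4 ± 0.426 CPM in Palmul-tang low, and its change was 1.29 lower on the log2 scale with Sibjeondaebo-tang (log2 -1.29, adjusted p 1.44e-05 by edgeR). NEAT1 was at 248 and 271 CPM in Palmul-tang high and low (difference of the changes -0.87, adjusted p 3.03e-09). TPM2, a tropomyosin, was at 2.65, 2.26 and 2.04 CPM in Sibjeondaebo-tang high against 5.86, 4.32 and 5.31 CPM in low, while Palmul-tang means were 5.84 and 4.79 CPM (-1.45, adjusted p 6.31e-07). PABPC1L, a poly(A)-binding protein gene, differed by -1.11 (adjusted p 3.69e-09 by edgeR), and MAT2A by -0.68 (adjusted p 3.28e-06). Of 17 matrix genes 4 differed, of 29 splicing genes 3 and of 15 nuclear RNAs 2, beside 2.0% of all tested genes.

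Some inducible genes also had a called difference between the formulas. CYP1A1 rose by less with Sibjeondaebo-tang, by 0.47 on the log2 scale (-0.47 ± 0.114, adjusted p 0.0199 by edgeR), with Palmul-tang high at 178 ± 7.73 CPM. OSGIN1, an oxidative stress gene, also rose by less (-0.32, adjusted p 0.0289). The conjugate exporter ABCC3, which rose by 0.30, had a difference of -0.36. Its relative ABCC2 did not pass with Sibjeondaebo-tang (-0.09, adjusted p 0.146 by edgeR), and its difference was -0.49. A called difference was thus found for 3 of 27 NRF2 targets and 1 of 8 AHR targets, beside 2.0% of all tested genes. For AKR1B10 (-0.26 ± 0.084, adjusted p 0.119), NQO1 (-0.14, adjusted p 0.484), ASNS (0.23, adjusted p 0.087), HAMP (-0.34, adjusted p 0.727) and MT1F (-0.24, adjusted p 0.697) the difference did not pass, which does not show that the formulas act alike. The 8 genes with the opposite sign had small differences: OAZ2 (0.31), PRMT6 (0.30) and THRB (0.30) did not pass with Sibjeondaebo-tang, and their Palmul-tang means were 22.5, 29.5 and 40.6 CPM with the low and 19.3, 24.9 and 33.9 CPM with the high dose.

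**Figure D4:**
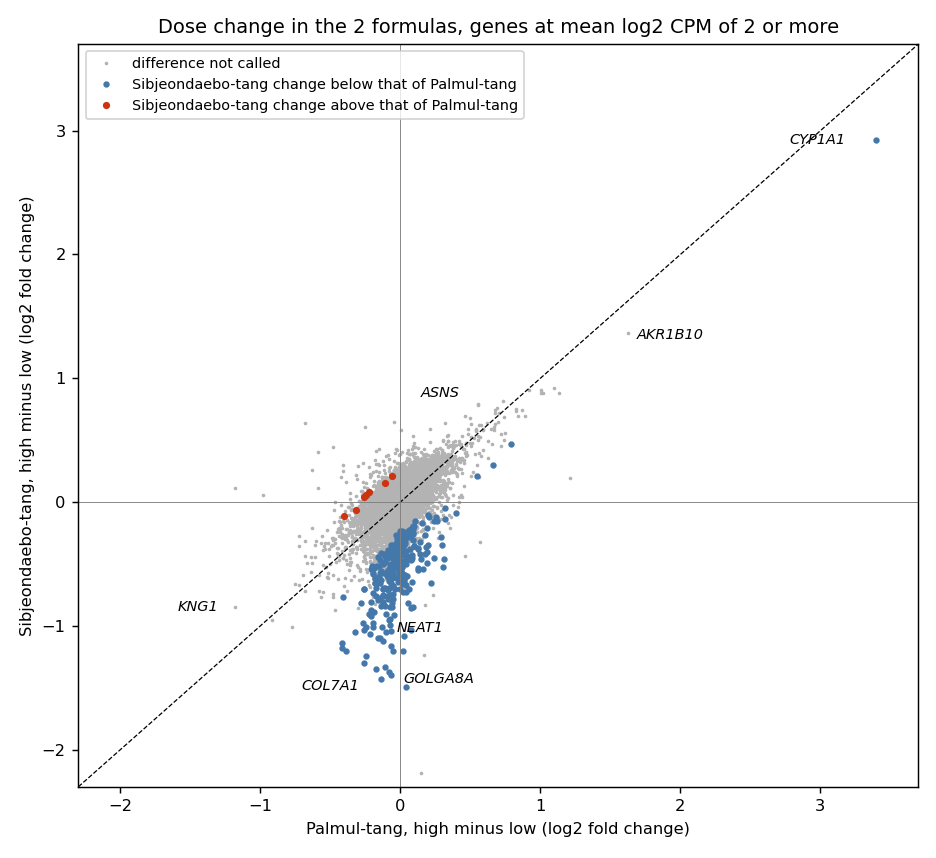
Log2 fold change from low to high dose with Palmul-tang (horizontal) and Sibjeondaebo-tang (vertical) for 10796 genes, with equal changes on the dashed line. Blue points, 280 of the genes shown, are those whose change was called lower with Sibjeondaebo-tang, and 7 red ones were called higher; most blue points lie near 0 for Palmul-tang and below 0 for Sibjeondaebo-tang.

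The 3 doses are spaced evenly on a log scale, so the step from low to medium could be set against the step from medium to high. For 87.9% of the higher and 84.4% of the lower genes the medium mean lay between the others with TMM factors, and for 57.6% and 94.1% with library totals. These genes were chosen for a difference between high and low, so a medium mean between them is partly expected from that choice. The median gene had made 28.0% (higher) or 21.2% (lower) of its log2 change at the medium dose with TMM factors, and 10.7% or 27.5% with library totals, so that the order of the 2 sets turned. The upper step differed from the lower for 70 genes (0.435% of those tested), 12 with a more positive upper step (0.0746%) and 58 with a more negative one (0.361%). An unadjusted p under 0.05 was found for 9.32%.

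Of 27 NRF2 targets 6 were of the first kind. AKR1C1 was at 244, 251 and 252 CPM at the medium dose, under the low libraries, and AKR1C2 at 149.7, 149.8 and 150.1 CPM, so their rise lay in the upper step (difference of the steps 1.07 and 1.01, adjusted p 5.73e-06 for each by edgeR). AKR1B10 (0.82), CYP1A1 (0.74), PTGR1, a reductase of unsaturated aldehydes (0.72), AKR1C3 (0.55), TXNRD1 (0.47) and NQO1 (0.47) were further examples. The negative kind held COL7A1 (-0.99), GOLGA8B (-1.04), TPM2 (-0.87), PABPC1L (-0.76), COL27A1 (-0.69), MLXIPL (-0.66) and NEAT1 (-0.58). HAMP had log2 ratios of means of -0.93 over the lower and -1.8 over the upper step, a difference that did not pass (-0.84, adjusted p 0.326). EGR1 had made most of its rise by the medium dose, at 28.4, 29.3 and 29.2 CPM, and the difference of its steps did not pass either (-0.36, adjusted p 0.326).

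**Figure D5:**
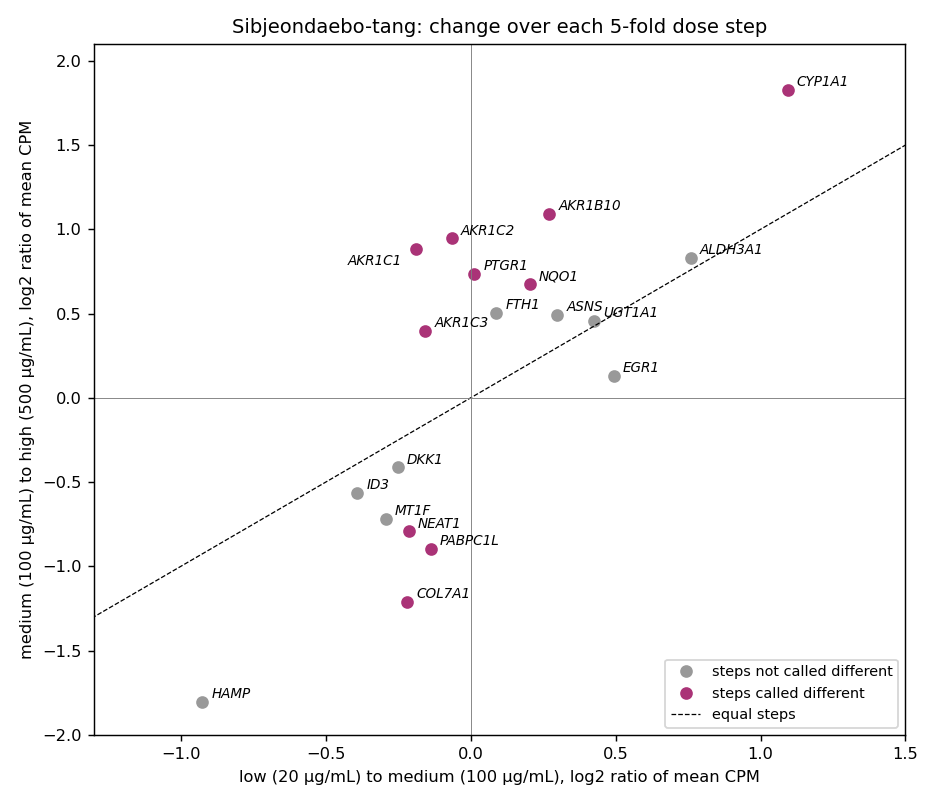
Log2 ratio of mean CPM from low to medium (horizontal) and from medium to high dose (vertical) for named genes of Sibjeondaebo-tang, with equal steps on the dashed line. Purple points passed the test of the difference between the steps; AKR1C1 and AKR1C2 lie at or left of 0 and well above it, COL7A1 lies well below the line, and CYP1A1 rose in both steps.

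Low replicate 3 held transcripts of another cell type. A set of 9 genes was at 1 CPM or more in it and at least 4 times every other fitted library: COL1A1 (8.29 CPM), COL1A2 (6.96), COL6A3 (4.55), COL3A1 (4.3), VIM (3.8), COL6A2 (2.34), DCN (1.9), THBS2 (1.39) and PTX3 (1.23). Of 21 fibroblast markers, 1 was at 0 in it, beside 8 and 7 in the other low and 10, 9 and 10 in the high libraries. The markers summed to 171 CPM in it, 145 and 143 CPM in the other low and 153 to 166 CPM in the high libraries. Most of each sum came from ACTA2, LOX and TAGLN, which were present in every library. These were at 66.3, 42.4 and 16.7 CPM in low replicate 3 and 73.6, 55.8 and 24.2 CPM in high replicate 1. LOX and TAGLN were called higher at the high dose, whereas COL1A2 and DCN were at 0 in every high library. COL1A1, the chain of type I collagen, was the only one of the 9 tested. It was at 0.207, 0.133 and 0.182 CPM with the high dose and 0.298, 0.14 and 8.29 CPM with the low dose, and its call (-4.03 ± 1.14, adjusted p 0.0185) had an adjusted p of 0.743 without that library. Without low replicate 3 there were 2428 calls in all, 2365 of them shared with the same sign, 1152 higher and 1213 lower. In that fit 24 NRF2 targets, 18 tRNA synthetases, 10 ATF4 targets and 10 hypoxia genes were called higher, and 5 BMP-SMAD targets, 7 matrix genes and 6 metallothionein and zinc genes lower. Its part in the other results was not tested beyond this fit.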

How the data were processed

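RNA of HepG2 cells was sequenced with a directional kit and paired reads. The authors deposited expected counts per gene, estimated by RSEM and not whole for 8.56% of values. Per the submitters' processing notes, RSEM 1.3.3, STAR 2.7.3a, FastQC 0.11.9 and Trim Galore 0.6.5 were used with GRCh38. The annotation release, not given in the sources used here, was not assumed. DMSO, the vehicle, is at 0.1% in the sample labels and 2% in the design text. The 240 columns of no sample given here were not used.

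Expected counts were rounded and fitted in edgeR 4.0.16 (R 4.3.3): quasi-likelihood test, TMM factors, filterByExpr with a minimum count of 10, 27 libraries of 10 groups, 16083 genes, Benjamini-Hochberg threshold 0.05. CPM values are TMM scaled. A difference of 2 changes or of 2 dose steps was a contrast of the same fit. The procedure was tested on simulated data. RSEM divides reads between near-identical genes by estimate. Gene positions and structure are from GENCODE 29, promoters from RefSeq. The structure sets and the metal motif were chosen after the data were seen. Replicate numbers were not used to pair high and low libraries in the main fit. No replicate pair had identical values.

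Members and gene lists were chosen with earlier results of these data known. Some lists share members, such as NQO1 (AHR, NRF2) and SLC7A11 (NRF2, ATF4). Genes were named by this rule: up to 12 each way by fold among calls whose mean log2 CPM was at least 2 and whose groups did not overlap. Up to 3 called per list by adjusted p, a fixed set, and up to 6 each way for the other contrasts were added. The picks by size of change passed over genes with clone, LINC, antisense, pseudogene-like or readthrough symbols, so larger changes of such genes are not named. Genes named beside these, such as list members that did not pass, were chosen after their values were seen. Alternatives were DESeq2 1.42.0, other size factors, no filter, a GC and length offset, the compared groups alone, a fit without Samul-tang medium, a replicate block and leaving out each library. A few results that fall under the naming rule are not reported here.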

Additional observations from a re-analysis of the deposited data

Results flagged for a closer look

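The change from the low to the high dose differed between Sibjeondaebo-tang and Palmul-tang for 30 named genes, by edgeR's test of the difference itself. Values are log2 differences, negative where the change was lower with Sibjeondaebo-tang. Named genes whose change was more negative included TPM2 (-1.453), GOLGA8B (-1.329), GOLGA8A (-1.294), COL7A1 (-1.291), ATG16L2 (-1.145), PABPC1L (-1.109), RNF207 (-1.102), KIFC2 (-1.095) and CSAD (-1.039). Smaller differences were those of CHRD (-0.998), NPEPL1 (-0.991), MAMDC4 (-0.951), RGL3 (-0.938), COL27A1 (-0.919), NEAT1 (-0.873), NRBP2 (-0.81), MLXIPL (-0.709) and MAT2A (-0.682). COL6A1 (-0.576), PNISR (-0.555), CYP1A1 (-0.475), SNHG12 (-0.433), CENPE (-0.375) and SRSF5 (-0.366) followed.

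The opposite sign was found for OAZ2 (0.307), PRMT6 (0.302), THRB (0.302), TP53INP2 (0.285), YWHAQ (0.268) and NUCKS1 (0.265). Of these 6, the first is an antizyme of polyamine control, the second an arginine methyltransferase and the third a thyroid hormone receptor. The formulas were compared over 3 libraries per dose each.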

How the results depend on the processing

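For high against low the balance of calls turned from 1673 higher and 1518 lower to mostly lower under several alternatives: 1215 and 1421 with DESeq2, 1261 and 1672 with median-ratio factors, 1130 and 1706 with no filter, 1804 and 2018 with the compared groups alone, 1540 and 1870 without Samul-tang medium, and 393 and 2378 with library totals. None of the named genes that were called changed sign under the alternatives run. For this comparison, leaving out 1 library gave 2042 to 2582 calls, 847 to 1296 higher and 1141 to 1465 lower. For the difference from Palmul-tang, library totals gave 598 calls (1 positive, 597 negative) and no filter 562 (79 and 483). Positive calls were 23 with the GC and length offset and 21 with the compared groups alone. Leaving out 1 library gave 211 to 380 calls, 1 to 11 positive and 210 to 369 negative, with 211 without Sibjeondaebo-tang high replicate 3. For the dose steps, DESeq2 gave 143 calls (20 positive, 123 negative), no filter 311 (76 and 235), the compared groups alone 189 (46 and 143) and library totals 7 positive calls. Leaving out 1 library gave 18 to 115 calls, 3 to 11 positive and 15 to 104 negative, with 18 without medium replicate 2. The cause was not tested. With a replicate block 3330 genes were called for high against low (3905 in the 6 libraries alone), 328 for the difference from Palmul-tang and 89 for the steps. The correlations of deviations of same-numbered libraries were 0.017, 0.06 and 0.116, and those of differently numbered ones ran from -0.157 to 0.098. These values do not settle whether the numbers mark pairs. Of 160 named genes called, 137 were called in all 6 fits that left out 1 library. Levels under 1 CPM rest on few reads.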
